A study of Homo sapiens with 8 samples.

Results

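The genes described here moved the same way in 2 human osteosarcoma cell lines, 143B and HOS, between libraries labelled sgNAT10 and control libraries labelled NC. They were chosen from deposited FPKM, that is, fragments divided by the transcript's length in kilobases and by the size of the library: a gene had to reach 1 FPKM in at least 2 libraries of each line, and both sgNAT10 values had to lie above, or both below, the 2 NC values in 143B and in the same direction in HOS. Of 13703 genes listed in either line and 11807 listed in both, 10655 passed the filter on low values, and 1749 satisfied the rule, 984 of them higher and 765 lower in the sgNAT10 libraries. Because the rule uses the same values as the comparison, the sizes and counts of the members, and any call of their mean change by the fit described later, are descriptions and no independent support.

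The series measured polyA RNA in 8 libraries, 2 for each of 143B NC, 143B sgNAT10, HOS NC and HOS sgNAT10. The submitters describe the sgNAT10 cells as NAT10 knockouts; "sg" is read here as written in the labels, and neither the guide sequence, the number of clones nor the meaning of NC is given there. No treatment or time point is named. The labels do not say if paired libraries are separate cultures, so p-values measure only the spread between these libraries. In bulk RNA, fewer cells of a kind and less RNA per cell cannot be told apart.

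NAT10 makes N4-acetylcytidine (ac4C): this acetyltransferase modifies cytidines of 18S ribosomal RNA and of serine and leucine transfer RNAs, and it has been reported to act on messenger RNAs, where the mark has been linked to stability and translation. It works in the nucleolus during maturation of the small ribosomal subunit. A change in an mRNA level between these libraries does not show whether that mRNA carried the mark.

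The level of the targeted gene itself did not move the same way in both lines. NAT10 was at 16.1 and 19.9 FPKM in the 143B NC libraries, 9.05 and 7.19 in the 143B sgNAT10 libraries, 14.9 and 16.2 in the HOS NC libraries and 21.1 and 19.1 in the HOS sgNAT10 libraries. In 143B both sgNAT10 values were below the controls, whereas in HOS both were above them, so NAT10 was not among the members. Its mean change over the lines was -0.35 ± 0.14 (SE) on the log2(FPKM + 1) scale, with an adjusted p of 0.0949 from limma, and the difference between the lines was -1.41 (adjusted p = 0.00359, limma). Where the guide cuts is not given, so the RNA level does not check the knockout, and the libraries are called by their labels.

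The mesenchymal marker VIM, an intermediate filament protein, was at 1339 and 1741 FPKM in 143B NC and 482 and 766 in 143B sgNAT10. In HOS it was at 716 and 819 in NC and 920 and 929 in sgNAT10. The listed mesenchymal markers summed to 1414.5 to 1845 FPKM in 143B NC and 519 to 818 in 143B sgNAT10. In HOS they summed to 1497 to 1693 in NC and 1886 to 1960 in sgNAT10. The 143B sums were mostly VIM. SPARC, TWIST1, ALPL, COL1A1, COL5A1 and FN1 were also lower in both 143B sgNAT10 libraries, while for RUNX2 and CDH2 the 143B groups overlapped. CDH2 was at 6.69 and 13.2 FPKM in 143B NC and 12.1 and 21 in 143B sgNAT10. COL1A2 and THY1 were not listed in 143B, and COL1A1 there was at 1.32 to 5.44 FPKM, against 314 to 421 in HOS. Of the epithelial markers, CDH1, KRT5 and KRT14 were not listed in either line, while EPCAM was at 0.87 to 3.44 FPKM in 143B and 15.6 to 20.5 in HOS, CLDN4 was at 0.12 to 1.74 over both lines, and ESRP1 and CDH3, listed in HOS alone, were at 0.44 to 1.05. The blood genes PTPRC and CD3E were not listed in either line. Among the blood markers, CD68 and LYZ were listed in both lines and moved opposite ways in 143B. CD68 was at 126 and 103 FPKM in 143B NC, 50.2 and 45.6 in 143B sgNAT10 and 15.3 to 17.2 in HOS. LYZ was at 0.69 and 1.3 FPKM in 143B NC, 7.33 and 6.89 in 143B sgNAT10 and 0.86 to 1.19 in HOS. The part of these markers in the results was not tested. Depth is unknown, since FPKM keep no read total. Replicates correlated across genes with r of 0.977 and 0.984 in the 143B groups and 0.995 and 0.997 in the HOS groups. Cytosolic ribosomal protein genes held 25.5 to 27.0% of the summed FPKM in 143B NC and 40.7 to 42% in 143B sgNAT10, but 28.1 to 28.5% in HOS NC and 20.7 to 21.4% in HOS sgNAT10. That share moved opposite ways in the lines. FPKM are relative to the library's total, so each result was also computed under other scalings.

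Shared genes were a minority of those that separated the groups. Of all genes tested, 9.24% were higher and 7.18% lower in both lines without overlap, while 4054 genes (38.0%) separated the groups in opposite ways, 931 of them higher in 143B and 3123 higher in HOS. These opposite numbers depended on scaling: after median-ratio scaling 1924 were higher in 143B and 1930 in HOS. Under a correction for transcript length and GC, 3614 genes moved opposite ways and 3171 the same way. The median gene changed by -0.27 in 143B and by 0.19 in HOS on the log2(FPKM + 1) scale. Across genes, the changes in the 2 lines had a Pearson r of -0.24 and a Spearman rho of -0.25, given as a description because genes are not replicates. The Pearson r was -0.08 under the length and GC correction.

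A fit by limma over all 8 libraries, with 1 mean per group, called the mean change over both lines at an adjusted p under 0.05 for 1391 genes higher (13.1%) and 1870 lower (17.6%). Of the members, 809 higher genes (7.59% of all tested) and 599 lower genes (5.62%) were also called, and 175 and 166 were not. When each line was fitted by itself, 627 genes (5.88%) were called with the same sign in both and 2020 (19.0%) with opposite signs. The change differed between the lines for 5235 genes (49.1%), 1375 with the more positive change in 143B and 3860 in HOS. That split depended on scaling and became 2734 against 2578 after median-ratio scaling.

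Members moved further in 143B than in HOS. The median change of the higher members was 0.81 in 143B and 0.48 in HOS, and that of the lower members was -0.94 and -0.38. The change was larger in 143B for 734 of the 984 higher members and 671 of the 765 lower ones. The rule itself favours this, because replicates agreed less in 143B (r of 0.977 and 0.984) than in HOS (0.995 and 0.997). A change in 143B therefore had to be larger to separate the groups, and how much this contributed was not tested. The difference between the lines was called for 228 and 197 of them, against 49.1% of all genes. The rule, which asks for 1 direction in both lines, itself favours a low share here.

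**Figure D1:**
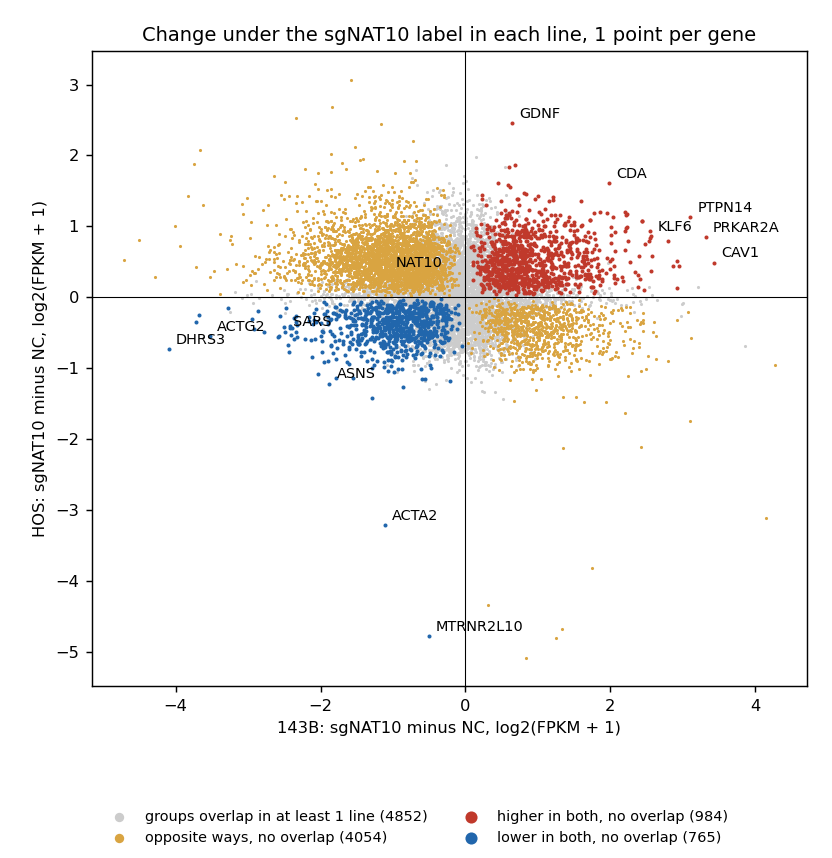
Each point is a gene, with the sgNAT10 minus NC difference of mean log2(FPKM + 1) in 143B on the x axis and in HOS on the y axis. The 984 members higher in both lines (red) and the 765 lower in both (blue) are fewer than the 4054 genes that separated the groups in opposite ways (yellow), among which NAT10 lies.

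Which genes counted as shared depended on how libraries were scaled. Scaling to a common FPKM sum kept 616 of the higher and 462 of the lower members, median-ratio scaling 653 and 627, quantile normalization 671 and 564, and a correction for length and GC of the transcript 705 and 527. Scaling to a common sum that left out ribosomal protein and MTRNR2L genes kept 953 and 662. No member satisfied the rule in the other direction under any of these. A core of 320 higher genes (3.0% of those tested) and 292 lower genes (2.74%) satisfied the rule under all 6 scalings, the deposited one included. The length and GC correction covered 974 of the higher and 754 of the lower members, those with a matched GENCODE transcript. Members without a matched transcript could not enter the core. Leaving out 1 library makes separation easier: without 143B NC replicate 1 there were 2684 shared genes and without 143B NC replicate 2 there were 2652. The number called by the joint fit fell when any single HOS library was left out. It rose without either 143B NC library and fell less without either 143B sgNAT10 library. Each such fit leaves 1 library in a group. The joint fit used 1 spread for both lines, although replicates agreed less in 143B, and what this contributed was not tested.

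The gene with the largest mean rise among the members was PTPN14, a tyrosine phosphatase that restrains the coactivator YAP (chr1:214348696-214552449, GRCh38). PTPN14 was at 2.59 and 3.07 FPKM in the 143B NC libraries, 26.3 and 38.5 in the 143B sgNAT10 libraries, 3.67 and 3.55 in the HOS NC libraries and 9.0 and 9.17 in the HOS sgNAT10 libraries. All 4 sgNAT10 values lay above all 4 NC values, and the 143B pair was the highest. The mean was 11.4-fold higher in 143B and 2.52-fold higher in HOS, with a mean log2 change of 2.12 ± 0.16 (SE, n = 2 libraries in each of 4 groups). No p is given for the mean change of a member, since the same values chose it.

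PRKAR2A encodes a regulatory subunit of protein kinase A (chr3:48744597-48847846). Its level was 8.8 and 11.9 FPKM in the 143B NC libraries, 105 and 117 in the 143B sgNAT10 libraries, 9.74 and 10.9 in the HOS NC libraries and 19.4 and 19.3 in the HOS sgNAT10 libraries. The NC values were alike in the lines, and the sgNAT10 values rose 10.8-fold in 143B and 1.87-fold in HOS. CAV1, the main coat protein of caveolae (chr7:116524785-116561184), was at 24.4 and 40.9 FPKM in the 143B NC libraries, 306 and 404 in the 143B sgNAT10 libraries, 151 and 152 in the HOS NC libraries and 205 and 219.9 in the HOS sgNAT10 libraries. As a ratio, control levels of CAV1 differed between the lines more than the sgNAT10 levels did. HOS was the higher line in NC and 143B in sgNAT10. The mean log2 change of CAV1 was 3.43 in 143B and 0.49 in HOS.

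CDA, cytidine deaminase of the pyrimidine salvage pathway (chr1:20588948-20618908), stood out for a rise of like size in both lines on the log2(FPKM + 1) scale. CDA was at 0.41 and 0.27 FPKM in the 143B NC libraries, 4.68 and 3.92 in the 143B sgNAT10 libraries, 6.85 and 8.86 in the HOS NC libraries and 26.3 and 25.5 in the HOS sgNAT10 libraries. Its change was 1.98 in 143B and 1.61 in HOS, and the difference between the lines was not called (adjusted p = 0.313, limma). The 143B NC values were under 1 FPKM, where the added 1 shrinks a log2 change. As a ratio of mean FPKM, CDA rose 12.6-fold in 143B and 3.3-fold in HOS, so the like size holds only on the log2(FPKM + 1) scale.

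The 15 largest rises included the transcription factors KLF6, FOXO3 and NFIB and the kinase ABL2. The share of such genes among all tested was not counted. KLF6, a zinc finger factor induced by growth and stress signals (chr10:3775996-3785281), was at 12.9 and 18.8 FPKM in the 143B NC libraries, 100.4 and 92.6 in the 143B sgNAT10 libraries, 15.6 and 13.8 in the HOS NC libraries and 27.5 and 27.4 in the HOS sgNAT10 libraries. FOXO3, a forkhead factor held out of the nucleus by AKT, was at 1.28 and 2.78 FPKM in the 143B NC libraries, 12.4 and 12.9 in the 143B sgNAT10 libraries, 4.84 and 4.52 in the HOS NC libraries and 11.6 and 11.8 in the HOS sgNAT10 libraries. Both rose in each line, and FOXO3 ended at nearly the same level in the 2 sgNAT10 groups. NFIB, a nuclear factor I protein, had mean log2 changes of 2.54 in 143B and 0.94 in HOS, and ABL2, a tyrosine kinase that acts on actin, of 2.43 and 1.08.

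KISS1, which encodes the kisspeptin precursor, was at 5.65 and 3.71 FPKM in the 143B NC libraries, 32.8 and 26 in the 143B sgNAT10 libraries, 18 and 23.4 in the HOS NC libraries and 41.9 and 47.1 in the HOS sgNAT10 libraries. DCP1A, a cofactor of mRNA decapping, rose 9.34-fold in 143B and 1.5-fold in HOS. The others among the 15 largest rises were PRR11, PM20D2, HTD2, LRRC58 and LOC112268168, with mean log2 changes of 1.8, 1.7, 1.7, 1.69 and 1.7. LOC112268168 was listed at 0 in both HOS NC libraries, so no fold is given. HTD2 did not keep to the rule under all 6 scalings, whereas 13 of the 15 did. LOC112268168 had no matched transcript, so the length and GC correction did not cover it and all 6 could not be checked.

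Among abundant members, the calcium-binding protein S100A6 was at 1909 and 1289 FPKM in the 143B NC libraries, 6370.5 and 6702 in the 143B sgNAT10 libraries, 1456 and 1549 in the HOS NC libraries and 1718 and 1899 in the HOS sgNAT10 libraries. MT1E, a metallothionein that binds zinc and copper, was at 538 and 461 FPKM in the 143B NC libraries, 979 and 789.9 in the 143B sgNAT10 libraries, 215 and 219 in the HOS NC libraries and 329 and 344 in the HOS sgNAT10 libraries. PABPC1, the cytoplasmic poly(A)-binding protein, was at 156 and 341 FPKM in the 143B NC libraries, 917 and 568 in the 143B sgNAT10 libraries, 365 and 363 in the HOS NC libraries and 574 and 558 in the HOS sgNAT10 libraries. These genes rose in both lines, S100A6 mostly in 143B (2.06 against 0.27), but only MT1E and PABPC1 of these 3 kept to the rule under all 6 scalings. KRT18 and MRPL23 completed the 5 most abundant risers, with mean log2 changes of 0.65 and 1.01.

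**Figure D2:**
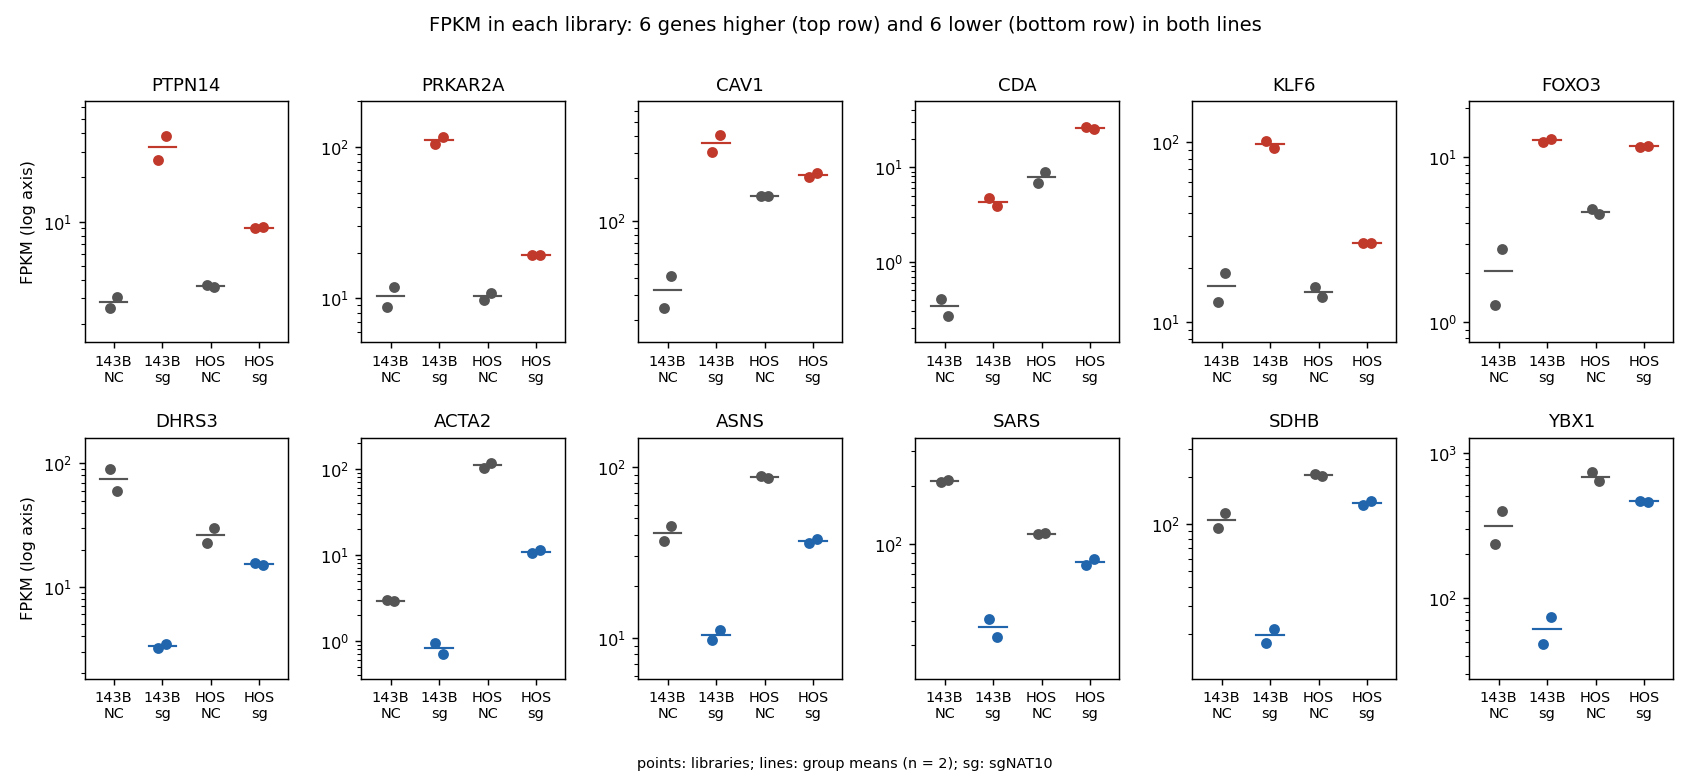
FPKM on log axes in each library for 6 genes higher (top row) and 6 lower (bottom row) in both lines; points are libraries and lines are group means (n = 2). In every panel the sgNAT10 points of a line lie wholly above or wholly below its NC points, and the gap is wider in 143B than in HOS for PRKAR2A, CAV1 and DHRS3 but wider in HOS for ACTA2.

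The largest mean fall was that of MTRNR2L10, one of the nuclear humanin-like genes, which closely resemble mitochondrial 16S ribosomal RNA and can share reads with it. MTRNR2L10 was at 177 and 182 FPKM in the 143B NC libraries, 141 and 113 in the 143B sgNAT10 libraries, 426 and 439 in the HOS NC libraries and 15.4 and 14.2 in the HOS sgNAT10 libraries. Its fall was nearly all in HOS (-4.78 against -0.51 in 143B), and it did not keep to the rule under all 6 scalings.

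DHRS3, which reduces retinaldehyde to retinol (chr1:12567910-12617731), was at 90.3 and 59.3 FPKM in the 143B NC libraries, 3.22 and 3.48 in the 143B sgNAT10 libraries, 22.8 and 30 in the HOS NC libraries and 15.7 and 15.1 in the HOS sgNAT10 libraries. It fell by 2.41 on average on the log2(FPKM + 1) scale (SE 0.17), with a change of -4.09 in 143B. The smooth muscle actins fell in both lines. ACTA2 (chr10:88935074-88991339) was at 2.99 and 2.89 FPKM in the 143B NC libraries, 0.94 and 0.71 in the 143B sgNAT10 libraries, 102 and 117 in the HOS NC libraries and 10.5 and 11.3 in the HOS sgNAT10 libraries. ACTG2 (chr2:73892314-73919865) was at 26.3 and 31.9 FPKM in the 143B NC libraries, 2.08 and 1.19 in the 143B sgNAT10 libraries, 182 and 213 in the HOS NC libraries and 135 and 133 in the HOS sgNAT10 libraries. ACTA2 was scarce in 143B and changed most in HOS, while ACTG2 changed most in 143B; the 2 sequences are close, and how their reads were divided is set by the deposited quantification.

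FOS, an AP-1 subunit of the immediate early response, was at 6.48 and 8.33 FPKM in the 143B NC libraries, 0 and 0.21 in the 143B sgNAT10 libraries, 17.3 and 16.7 in the HOS NC libraries and 12 and 12.3 in the HOS sgNAT10 libraries. It was listed at 0 in 1 of the 143B sgNAT10 libraries. H1F0, the replacement linker histone H1.0, was at 91.4 and 121 FPKM in the 143B NC libraries, 16.5 and 21.1 in the 143B sgNAT10 libraries, 229 and 212 in the HOS NC libraries and 130.5 and 128 in the HOS sgNAT10 libraries. COL9A3, a cartilage collagen chain, had mean log2 changes of -2.45 in 143B and -0.67 in HOS, and the LIM-domain gene CRIP2 of -2.04 and -1.08.

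MPLKIP, TP53I11 and TUBA1A were also among the 15 largest falls, with mean log2 changes of -1.63, -1.56 and -1.57. These 3 kept to the rule under all 6 scalings. RPSAP58 and EIF3C did not. X45174 and LOC101929479 had no matched transcript, so the length and GC correction did not cover them and all 6 could not be checked. RPSAP58, EIF3C, X45174 and LOC101929479 fell mainly in 143B. RPSAP58 is a pseudogene of the ribosomal protein gene RPSA, and EIF3C has a near-identical copy, so their levels are uncertain.

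Asparagine synthetase (ASNS), Y-box protein 1 (YBX1) and KLF6 are shown with their promoters because they are a lower member of the amino acid response, an abundant lower RNA-binding protein and a leading riser. RefSeq promoters (GRCh38.p14, 250 bases before to 50 after the start) were found for 8785 of the 10655 genes tested. ASNS is at chr7:97872359-97872658 on the minus strand, with capitals marking a match to TGATGNAA, the composite element bound by ATF4 dimers, whose first base is 68 before the start. YBX1 is at chr1:42682168-42682467 on the plus strand and KLF6 at chr10:3785160-3785459 on the minus strand, with capitals marking CCAAT on either strand, 3 times in YBX1 and 2 times in KLF6.
ASNS: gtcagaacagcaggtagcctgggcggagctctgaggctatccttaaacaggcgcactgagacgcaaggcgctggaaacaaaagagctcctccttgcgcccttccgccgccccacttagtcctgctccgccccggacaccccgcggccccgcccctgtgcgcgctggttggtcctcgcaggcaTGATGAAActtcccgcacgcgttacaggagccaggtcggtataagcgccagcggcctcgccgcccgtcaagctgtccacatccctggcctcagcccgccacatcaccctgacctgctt
YBX1: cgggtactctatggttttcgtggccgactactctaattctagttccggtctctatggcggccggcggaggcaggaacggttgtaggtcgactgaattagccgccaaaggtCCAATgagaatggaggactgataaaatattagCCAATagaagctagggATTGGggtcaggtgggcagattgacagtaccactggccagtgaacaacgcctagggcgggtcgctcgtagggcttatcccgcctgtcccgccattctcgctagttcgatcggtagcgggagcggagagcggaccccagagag
KLF6: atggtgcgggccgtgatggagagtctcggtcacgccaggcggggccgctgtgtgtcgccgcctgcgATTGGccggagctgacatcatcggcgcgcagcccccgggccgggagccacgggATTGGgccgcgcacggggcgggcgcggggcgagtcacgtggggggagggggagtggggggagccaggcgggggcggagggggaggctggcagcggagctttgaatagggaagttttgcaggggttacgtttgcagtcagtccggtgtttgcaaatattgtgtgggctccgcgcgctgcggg

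Each motif was searched on both strands. TGATGNAA was in 1.59% of the promoters of lower members, 1.39% of those of higher members, 1.42% of all tested genes and 3.62% of all 35116 RefSeq promoters, so the members stood near the tested background. CCAAT, the pentamer bound by NF-Y, was in 43.4% of the promoters of lower members, 37.7% of those of higher members, 37.1% of all tested and 34.6% of all RefSeq promoters. In the core under all scalings the shares of CCAAT were 47.5% (lower) and 41.3% (higher). The AP-1 letters TGANTCA were in 4.63% of lower, 5.06% of higher and 4.17% of all tested promoters, and in 7.71% of all RefSeq promoters. A match describes the letters, not binding.

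ASNS makes asparagine from aspartate and glutamine and is a well-known target of ATF4, the transcription factor of the integrated stress response. ASNS was at 36.6 and 45.3 FPKM in the 143B NC libraries, 9.65 and 11.1 in the 143B sgNAT10 libraries, 88 and 86.1 in the HOS NC libraries and 35.8 and 37.9 in the HOS sgNAT10 libraries. The 2 groups were well apart in each line, with changes of -1.88 and -1.22 (mean -1.55 ± 0.13, SE), and the difference between the lines was not called (adjusted p = 0.0591, limma). ATF4 RNA itself was at 421 and 473 FPKM in the 143B NC libraries, 154 and 157 in the 143B sgNAT10 libraries, 434 and 449 in the HOS NC libraries and 367 and 372 in the HOS sgNAT10 libraries. PCK2, mitochondrial phosphoenolpyruvate carboxykinase, also fell (mean log2 change -1.33), but ATF4 and PCK2 did not keep to the rule under all 6 scalings.

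The list of ATF4 targets and amino acid supply genes as a whole did not move together. Of its 38 tested members, 3 were lower and 1 was higher in both lines (7.89% and 2.63%, against 7.18% and 9.24% of all genes), and 19 (50%) moved opposite ways, against 38.0%. Over the scalings 3 to 8 were lower and 1 to 3 higher. The lower members were ASNS, PCK2 and ATF4, and the higher one was ALDH18A1, a proline synthesis enzyme, with a mean log2 change of 0.76. The joint fit called 12 lower and 2 higher, against 17.6% and 13.1% of all genes, and the list's median mean change was -0.16, against -0.06 for all genes tested.

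Aminoacyl-tRNA synthetases, which load amino acids onto transfer RNAs, had 5 of 20 tested members lower in both lines and 1 higher. That is 25% lower, against 7.18% of all genes, with no test of the list. SARS, the seryl-tRNA synthetase (chr1:109213918-109238169), was at 209 and 214 FPKM in the 143B NC libraries, 41 and 33.3 in the 143B sgNAT10 libraries, 113 and 113 in the HOS NC libraries and 77.8 and 83.5 in the HOS sgNAT10 libraries. Its mean log2 change was -1.48 ± 0.12 (SE), and CARS, WARS and AARS, for cysteine, tryptophan and alanine, had -1.18, -0.98 and -0.91. AARS barely moved in HOS (-0.09). SARS, CARS and WARS kept to the rule under all 6 scalings, and the number of lower synthetases ranged from 4 to 10 over them.

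Chaperones of the endoplasmic reticulum had 5 of 21 tested members lower and 1 higher in both lines (23.8% and 4.76%, against 7.18% and 9.24% of all genes). The lower count was 2 under quantile normalization and 9 under median-ratio scaling or the length and GC correction. PDIA4, a disulfide isomerase, was at 46.6 and 62.7 FPKM in the 143B NC libraries, 10.4 and 15.7 in the 143B sgNAT10 libraries, 51.8 and 54 in the HOS NC libraries and 40.6 and 41.1 in the HOS sgNAT10 libraries. HSP90B1, the ER member of the HSP90 family, was at 73.8 and 160.2 FPKM in the 143B NC libraries, 39.1 and 47.1 in the 143B sgNAT10 libraries, 506 and 449 in the HOS NC libraries and 277 and 289 in the HOS sgNAT10 libraries. Both fell in each line, and both kept to the rule under all 6 scalings. CALR, the lectin chaperone calreticulin, and DNAJB11, a cofactor of BiP, had mean log2 changes of -0.73 and -0.54 and did not. The higher member was SDF2L1, and 7 members moved opposite ways.

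Nuclear genes for respiratory chain subunits had 9 of 38 tested members lower in both lines and none higher (23.7% lower, against 7.18% of all genes), while 17 (44.7%) moved opposite ways, near the 38.0% of all genes. SDHB, the iron-sulfur subunit of succinate dehydrogenase (chr1:17018722-17054170), was at 93.8 and 118 FPKM in the 143B NC libraries, 17.7 and 21.7 in the 143B sgNAT10 libraries, 208 and 202 in the HOS NC libraries and 133 and 141 in the HOS sgNAT10 libraries. ATP5PB, a stator subunit of ATP synthase, was at 75.7 and 152 FPKM in the 143B NC libraries, 15.5 and 26.8 in the 143B sgNAT10 libraries, 166 and 154 in the HOS NC libraries and 113 and 115 in the HOS sgNAT10 libraries. NDUFS1 of complex I and UQCRC2 of complex III had mean log2 changes of -1.24 and -1.02. All 4 kept to the rule under all 6 scalings, as did 6 of the 38 in all. Over the scalings, 7 to 13 subunits were lower and at most 1 was higher. The list's median change was 0.26 in 143B and -0.46 in HOS.

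Mitochondrial ribosomal proteins had 9 of 78 lower (11.5%) and 3 higher (3.85%) in both lines, against 7.18% and 9.24% of all genes. The lower count ran from 8 under quantile normalization to 16 after scaling to a common sum, and the higher count from 2 to 8. MRPL13, a large subunit protein, was at 10.2 and 22 FPKM in the 143B NC libraries, 2.26 and 4.09 in the 143B sgNAT10 libraries, 102 and 97.3 in the HOS NC libraries and 55.3 and 60.5 in the HOS sgNAT10 libraries. MRPL50 and MRPS28 had mean log2 changes of -1.02 and -0.76, while MRPL23 was higher, at 826 and 473 FPKM in the 143B NC libraries, 2133 and 2033 in the 143B sgNAT10 libraries, 72.3 and 92 in the HOS NC libraries and 97 and 102 in the HOS sgNAT10 libraries. MRPL13 and MRPL50 kept to the rule under all 6 scalings, whereas MRPS28 and MRPL23 did not.

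Cytosolic ribosomal proteins mostly moved opposite ways: 57 of the 85 tested genes named as such did so (67.1%), against 38.0% of all genes. In both lines 6 were lower and 1 was higher (7.06% and 1.18%, against 7.18% and 9.24%). The list was taken by name and so holds the readthrough gene RPL17.C18orf32, which was lower, and RPL7L1, an RPL7-like nucleolar protein, which was the higher one. RPLP0, the stalk protein, was at 3748 and 4320.4 FPKM in the 143B NC libraries, 1683 and 1632 in the 143B sgNAT10 libraries, 3036 and 3401 in the HOS NC libraries and 2342 and 2385 in the HOS sgNAT10 libraries. RPL30, of the large subunit, was at 809 and 1039 FPKM in the 143B NC libraries, 359 and 489 in the 143B sgNAT10 libraries, 2847 and 2892 in the HOS NC libraries and 1439 and 1619 in the HOS sgNAT10 libraries. RPS2 had a mean log2 change of -0.52 and RPL39L, a paralogue of RPL39, of -1.13. Counts under the other scalings ran from 5 to 10 lower and 1 to 9 higher, and under quantile normalization more were higher than lower. Copies and pseudogenes of these genes share sequence, so single levels are uncertain.

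Translation factors had 6 of 40 higher and 4 lower in both lines (15% and 10%, against 9.24% and 7.18% of all genes). EIF5, which triggers GTP hydrolysis at the start codon, had log2 changes of 1.94 in 143B and 0.35 in HOS, and EIF3F of 0.47 and 1.0. EIF3H, another subunit of the eIF3 scaffold, was lower (-1.54 and -0.18). Only PABPC1 of these 40 kept to the rule under all 6 scalings, and after median-ratio scaling more were lower than higher. In ribosome biogenesis, 5 of 42 were higher and 3 lower (11.9% and 7.14%, near the background), and after scaling to a common sum or by median ratio more were lower than higher. RRP9, a U3 snoRNP protein, had a mean log2 change of 0.85, and NOP10, of the H/ACA particles that guide pseudouridylation, of -1.05.

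Genes for RNA modification had 5 of 36 higher and 2 lower in both lines (13.9% and 5.56%), near the 9.24% and 7.18% of all genes. YBX1, a reader of 5-methylcytosine in mRNA, was at 234 and 394 FPKM in the 143B NC libraries, 47.8 and 74.4 in the 143B sgNAT10 libraries, 734 and 636 in the HOS NC libraries and 466 and 458 in the HOS sgNAT10 libraries. IGF2BP1, a reader of N6-methyladenosine (m6A), was at 13.2 and 18.3 FPKM in the 143B NC libraries, 30.3 and 26.8 in the 143B sgNAT10 libraries, 15.2 and 16.3 in the HOS NC libraries and 32.3 and 29.9 in the HOS sgNAT10 libraries. The IGF2BP1 rise was of like size in the lines (0.83 and 0.94), while YBX1 fell further in 143B (-2.33 and -0.56). TRMT61A, of the tRNA m1A methyltransferase, rose by 0.84, and METTL3, the catalytic subunit of the m6A writer, was at 14.2 and 18.6 FPKM in the 143B NC libraries, 7.78 and 9.97 in the 143B sgNAT10 libraries, 24.8 and 24.3 in the HOS NC libraries and 17.6 and 17.2 in the HOS sgNAT10 libraries. These 4 kept to the rule under all 6 scalings.

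Splicing regulators of the SR and hnRNP families had 5 of 30 lower and 1 higher (16.7% and 3.33%, against 7.18% and 9.24% of all genes). Over the scalings 3 to 8 were lower and up to 2 higher. HNRNPR was at 18.5 and 44 FPKM in the 143B NC libraries, 5.89 and 9.41 in the 143B sgNAT10 libraries, 177 and 150.4 in the HOS NC libraries and 107 and 106 in the HOS sgNAT10 libraries. SRSF7, an SR protein that shuttles to the cytoplasm, had log2 changes of -1.9 and -0.35, and SRSF5 of -0.98 and -1.05. The mean log2 change of HNRNPDL was -0.88. HNRNPR, SRSF7 and HNRNPDL kept to the rule under all 6 scalings.

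Genes of mitosis had 6 of 38 lower and 2 higher in both lines (15.8% and 5.26%, against 7.18% and 9.24% of all genes). The lower count reached 14 under the length and GC correction. PRC1, which bundles microtubules of the central spindle, was at 15.4 and 28.6 FPKM in the 143B NC libraries, 8.56 and 11.3 in the 143B sgNAT10 libraries, 169 and 152 in the HOS NC libraries and 82.6 and 80.7 in the HOS sgNAT10 libraries. DLGAP5, a spindle protein, was at 7.91 and 18.8 FPKM in the 143B NC libraries, 2.09 and 3.87 in the 143B sgNAT10 libraries, 79.2 and 66.5 in the HOS NC libraries and 42.7 and 44.8 in the HOS sgNAT10 libraries. CCNB2 (cyclin B2) and the checkpoint protein MAD2L1 had mean log2 changes of -1.05 and -1.01. These 4 kept to the rule under all 6 scalings. CDC20 and CCNA2 were the 2 higher members, so the list did not move as 1 group.

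In DNA replication and G1/S genes, 5 of 41 were higher and 5 lower (12.2% each, against 9.24% and 7.18% of all genes), but after scaling to a common sum 1 was higher and 3 were lower. CCND1, cyclin D1, was at 101 and 148 FPKM in the 143B NC libraries, 232 and 172 in the 143B sgNAT10 libraries, 49.6 and 51.3 in the HOS NC libraries and 119 and 116 in the HOS sgNAT10 libraries. MCM6, a subunit of the replicative helicase, was at 10.5 and 21.6 FPKM in the 143B NC libraries, 6.35 and 9.18 in the 143B sgNAT10 libraries, 56.6 and 50.9 in the HOS NC libraries and 31.2 and 31.6 in the HOS sgNAT10 libraries. CCND1 rose further in HOS (1.21) than in 143B (0.71), although that difference was not called (adjusted p = 0.213, limma). PCNA, the sliding clamp, had a mean log2 change of -0.81, nearly all of it in 143B.

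Actin, tubulin and contractile genes had 8 of 35 lower and 2 higher (22.9% and 5.71%, against 7.18% and 9.24% of all genes). Beside ACTA2 and ACTG2, the alpha-tubulin TUBA1A was at 74.5 and 62.6 FPKM in the 143B NC libraries, 11.2 and 9.79 in the 143B sgNAT10 libraries, 150.1 and 157 in the HOS NC libraries and 99 and 109 in the HOS sgNAT10 libraries. TPM3, a tropomyosin, was at 191 and 309 FPKM in the 143B NC libraries, 138 and 164 in the 143B sgNAT10 libraries, 679.6 and 647 in the HOS NC libraries and 373 and 385 in the HOS sgNAT10 libraries. The changes of TPM3 were alike in the lines (-0.69 and -0.80). TUBA1B had a mean log2 change of -0.72. The 2 higher members were ACTB and TAGLN2. Over the scalings, 4 to 8 members were lower and up to 3 higher, and ACTA2, ACTG2, TUBA1A and TPM3 were the 4 that kept to the rule under all 6.

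Hippo pathway genes and targets of YAP had 6 of 33 higher and 1 lower in both lines (18.2% and 3.03%, against 9.24% and 7.18% of all genes). Over the scalings the higher count ran from 3 (common sum) to 8 and the lower count from 1 to 4. The list as a whole did not rise in both lines. Its median change was -0.36 in 143B and 0.85 in HOS, against -0.27 and 0.19 for all genes. In it 12 members (36.4%) moved opposite ways, near the 38.0% of all genes. Beside PTPN14, the higher members were AXL, SAV1, NF2, STK4 and ASAP1. NF2, SAV1 and STK4 encode upstream components of the pathway that inhibits YAP, whereas AXL is a receptor kinase counted among YAP targets. ASAP1, a GTPase-activating protein for ARF, was at 5.02 and 11.4 FPKM in the 143B NC libraries, 20.4 and 25.1 in the 143B sgNAT10 libraries, 14.8 and 13.5 in the HOS NC libraries and 30.9 and 28.6 in the HOS sgNAT10 libraries. STK4 (MST1) was at 3.32 and 8.55 FPKM in the 143B NC libraries, 10.1 and 12 in the 143B sgNAT10 libraries, 8.76 and 8.03 in the HOS NC libraries and 17.1 and 16.9 in the HOS sgNAT10 libraries. The lower member, TEAD2, a DNA-binding partner of YAP, was at 20.9 and 19.4 FPKM in the 143B NC libraries, 5.01 and 5.28 in the 143B sgNAT10 libraries, 8.27 and 9.3 in the HOS NC libraries and 4.71 and 4.04 in the HOS sgNAT10 libraries. PTPN14, ASAP1 and TEAD2 kept to the rule under all 6 scalings and STK4 did not.

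Growth factors and their receptors had 4 of 32 higher and 1 lower (12.5% and 3.12%, against 9.24% and 7.18% of all genes). The higher count was 0 after scaling to a common sum and 8 under quantile normalization. GDNF, a ligand of the RET receptor complex, was at 2.0 and 4.78 FPKM in the 143B NC libraries, 5.27 and 5.81 in the 143B sgNAT10 libraries, 3.58 and 4.2 in the HOS NC libraries and 26.1 and 25.5 in the HOS sgNAT10 libraries. Its rise was larger in HOS (2.46) than in 143B (0.65), and the difference was called (adjusted p = 0.00609, limma). PDGFRA, a receptor for platelet-derived growth factors, was at 1.77 and 5.31 FPKM in the 143B NC libraries, 0.32 and 0.42 in the 143B sgNAT10 libraries, 8.56 and 6.68 in the HOS NC libraries and 4.56 and 4.04 in the HOS sgNAT10 libraries, and its ligand gene PDGFC had a mean log2 change of 0.72. Of these 3, only PDGFRA kept to the rule under all 6 scalings.

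The remaining lists had few shared members. Of 34 hypoxia and glycolysis genes 3 were lower (8.82%, near the 7.18% of all genes, and 3 to 7 over the scalings), among them P4HA2, a collagen prolyl hydroxylase subunit (-1.24), and BNIP3, a mitophagy receptor (-0.69). FADS1, a fatty acid desaturase, rose by 0.91 and IDI1, of isoprenoid synthesis, changed by -0.75 in a list with 2 of 30 higher and 3 lower, near the background, where after scaling to a common sum none was lower. The early response factor EGR1 was at 12.3 and 23.5 FPKM in the 143B NC libraries, 1.84 and 3.03 in the 143B sgNAT10 libraries, 19.4 and 19.9 in the HOS NC libraries and 15 and 13.6 in the HOS sgNAT10 libraries. FOS and EGR1 were lower and KLF6 higher, and 25 of the 29 immediate early genes (86.2%) moved opposite ways, against 38.0% of all genes.

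Keratins did not move as a group. KRT19, a simple epithelial keratin, was at 1.58 and 1.89 FPKM in the 143B NC libraries, 0.080 and 0.16 in the 143B sgNAT10 libraries, 3.86 and 3.54 in the HOS NC libraries and 0.90 and 0.61 in the HOS sgNAT10 libraries. KRT18 was at 3036 and 2037 FPKM in the 143B NC libraries, 4492 and 3391 in the 143B sgNAT10 libraries, 362 and 417 in the HOS NC libraries and 606 and 614 in the HOS sgNAT10 libraries. KRT19 fell and KRT18 rose in both lines, and only KRT19 kept to the rule under all 6 scalings. HSPB8, a small heat shock protein, changed by 0.23 in 143B and 1.45 in HOS, and the chemokine CCL2 by -2.56 and -0.26. For p53 targets, 2 of 22 were higher and 2 lower (9.09% each, near the background), with ZMAT3 at 0.83 and DDB2 at -0.61. Extracellular matrix genes had 1 lower member of 40, ACTA2, and 29 (72.5%) that moved opposite ways, against 7.18% and 38.0% of all genes. Under the length and GC correction 11 were lower and 2 higher, and under median-ratio scaling 4 were lower.

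**Figure D3:**
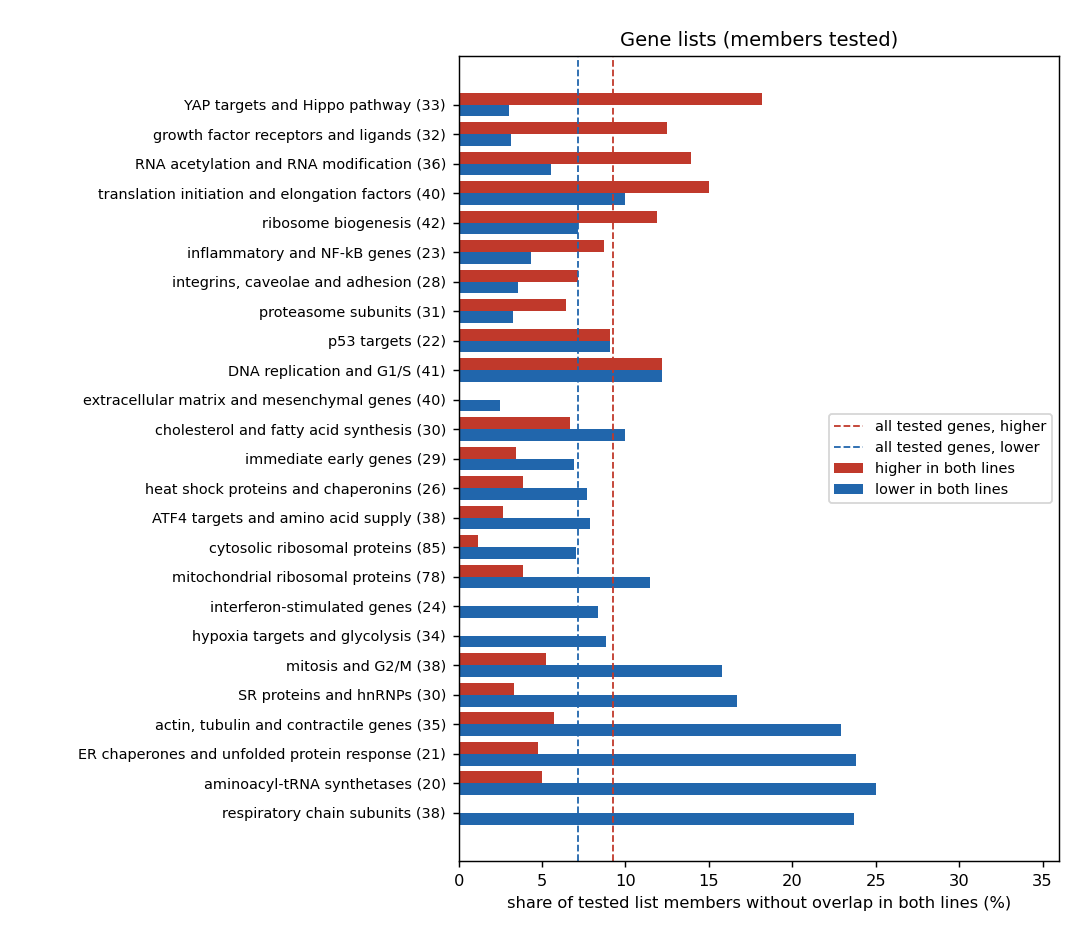
Share of tested members that were higher (red) or lower (blue) in both lines without overlap, for gene lists with at least 20 tested members. Smaller lists are not drawn. Dashed lines mark the shares for all genes tested (9.24% and 7.18%). Respiratory chain subunits, aminoacyl-tRNA synthetases, ER chaperones and the actin and tubulin list had 22.9 to 25% of members lower, and the YAP and Hippo list had 18.2% higher.

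Higher and lower members differed in transcript length, which the rule did not use. Of the 10655 genes, 10565 matched a GENCODE v29 transcript, taken as the longest protein-coding one. The median length was 4353 nt for higher members, 2365 nt for lower members and 3288 nt for all genes. Short transcripts were not particular to lower members. Among genes that moved opposite ways, the median was 2357.5 nt when higher in 143B and 3516.5 nt when higher in HOS. In 5 equal classes of genes from the shortest to the longest, the share of higher members went from 5.87% through 6.43, 7.39 and 10.2 to 16.2%, and the share of lower members from 12.1% through 9.93, 7.44 and 3.79 to 2.46%. Both shares kept 1 direction over the 5 classes. FPKM already divide by length, and the part of length in the calls was not tested apart from the length and GC correction, which kept 705 higher and 527 lower members.

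GC content did not separate higher from lower members in the same way. Its median was 46.5% for higher and 48.4% for lower members, against 49.6% for all genes. By contrast, genes that moved opposite ways had a median of 44.2% when higher in 143B and 56.6% when higher in HOS. Across genes, Spearman's rho of GC content with the change was -0.41 in 143B and 0.30 in HOS, and that of length was 0.03 and 0.30, as descriptions. The genes' values share libraries and are not independent.

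Runs of 4 cytidines at steps of 3 bases, a context described for acetylated mRNA, were counted per kb of transcript. The median was 7.09 per kb in higher members, 6.10 in lower members and 7.92 in all genes. It was 4.25 and 13.3 in the genes that were higher in 143B and in HOS among those moving opposite ways, in the order of their GC content. Lower members were also more abundant, with a median of 18.8 FPKM over the 8 libraries, against 7.73 for higher members and 11.6 for all genes. Among genes that moved opposite ways, this median was 24.1 FPKM when higher in 143B and 10.8 when higher in HOS.

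**Figure D4:**
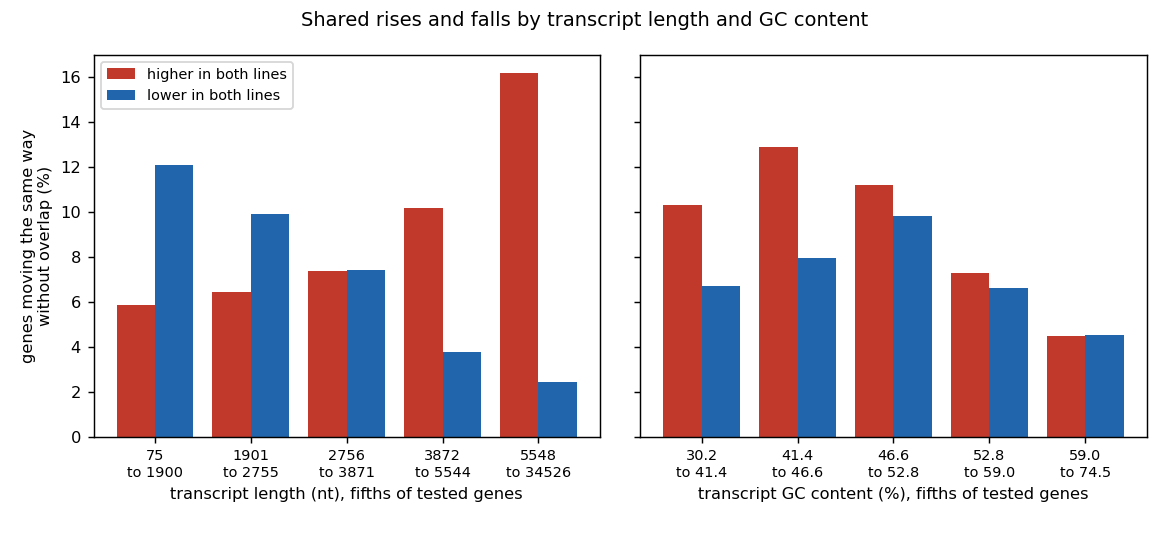
Share of genes higher (red) or lower (blue) in both lines without overlap, in 5 equal classes of tested genes by transcript length (left) and GC content (right). The share of higher members grows from 5.87 to 16.2% with length while that of lower members drops from 12.1 to 2.46%, and along GC content the higher share peaks at 12.9% in the second class and the lower share at 9.84% in the class after it.

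The rule has a sharp edge. Just inside it, NDUFC1 was at 54.5 and 53 FPKM in HOS NC and 44.6 and 53 in HOS sgNAT10, and SRSF4 at 55.3 and 53.4 and 53.4 and 50.8, so their nearest values were almost equal. Just outside it, TRAM2 was at 3.65 and 8.38 in 143B NC and 8.38 and 9.04 in 143B sgNAT10, and ZFP82 at 2.11 and 2.42 in HOS NC and 2.73 and 2.42 in HOS sgNAT10, each with a tie. With 2 libraries against 2 in a line, an exact permutation test of 1 gene could not give a p below 0.333.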

How the data were processed

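PolyA RNA of 8 libraries was analysed from the FPKM tables the authors deposited, 1 per cell line. Per the submitters' processing notes, Bowtie2, RSEM and DESeq2 were used with GRCh38; their roles and versions are not given in the sources used here, and no counts were used, so no count model was fitted. The deposited FPKM values were taken as log2(FPKM + 1) without rescaling. Genes listed in both tables with at least 1 FPKM in at least 2 libraries of each were kept.

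limma 3.58.1 (R 4.3.3) was fitted to all 8 libraries with 4 group means and an intensity trend, two-sided, with Benjamini-Hochberg adjustment over all 10655 genes and a threshold of 0.05; each line was also fitted alone. The mean-change contrast was tested on simulated data with 200 changed genes among the 10655. It recovered 8.2% of log2 changes of 0.5, 74.6% of 1 and 99.2% of 2, with 2.05% false calls. These rates describe the simulated data only. In the real data the joint fit called 3261 genes, and the change differed between the lines for 49.1% of genes. Whether the simulated rates hold for such data was not tested. Transcript length and GC came from GENCODE 29 and promoters from RefSeq.

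Named genes were NAT10, the 15 largest mean rises and falls and the 5 most abundant in each direction among members called in the joint fit, up to 4 such members of each list, the 3 largest opposite differences in each direction, and 2 genes on each side of the rule's edge. A few other list members are named only to account for a count, and were chosen after their values were seen. The members and lists were chosen with earlier results of these data known. Alternatives covered the pseudocount, the filter, 5 other scalings, the moderation, the replicate block and leaving out each library.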

Additional observations from a re-analysis of the deposited data

Results flagged for a closer look

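For 72 of the 125 named genes the limma test of the difference between the lines passed an adjusted p of 0.05. The share over all genes tested was 49.1%. Named genes were chosen from these same values, so the count is a description. NME1.NME2, PLAU, DDIT4, MTRNR2L3, MTRNR2L8 and MTRNR2L1 were named for the size of this very difference, so their passing is no support. The values in parentheses are the change in 143B minus the change in HOS on the log2(FPKM + 1) scale. Among members higher in both lines, those with a tested difference were PTPN14 (1.97), PRKAR2A (2.47), CAV1 (2.95), PRR11 (2.01), ABL2 (1.36), KISS1 (1.36), NFIB (1.61), DCP1A (2.41), KLF6 (1.7), LOC112268168 (1.0), PM20D2 (1.06), HTD2 (2.51), FOXO3 (1.07), LRRC58 (1.71), S100A6 (1.79), MRPL23 (1.45), RIOK1 (1.69), RRP9 (0.93), EIF5 (1.59), ZMAT3 (0.84), HSPB8 (-1.22) and GDNF (-1.81). Among members lower in both lines they were MTRNR2L10 (4.27), DHRS3 (-3.36), ACTA2 (2.1), ACTG2 (-2.98), RPSAP58 (-3.37), LOC101929479 (-3.42), EIF3C (-3.14), FOS (-2.47), MPLKIP (-2.29), X45174 (-2.65), H1F0 (-1.67), TUBA1A (-2.04), COL9A3 (-1.78), TP53I11 (-2.02), RPLP0 (-0.84), TUBA1B (-0.97), RPL17.C18orf32 (-1.5), YBX1 (-1.77), PCK2 (-2.08), ATF4 (-1.26), SARS (-2.0), CARS (-1.32), WARS (-1.07), AARS (-1.65), PDIA4 (-1.63), CALR (-0.63), P4HA2 (-1.72), IDI1 (-1.11), EGR1 (-1.98), CCL2 (-2.3), NOP10 (-1.06), EIF3H (-1.37), SDHB (-1.79), ATP5PB (-1.85), PSMA5 (-1.55), PCNA (-1.37), CCNB2 (-1.47), TEAD2 (-0.92), IRF9 (-0.98), SRSF7 (-1.55), NDUFC1 (-1.64) and SRSF4 (-1.23). Outside the members they were NAT10 (-1.41), NME1.NME2 (-5.75), PLAU (-5.63), DDIT4 (-5.31), MTRNR2L3 (7.27), MTRNR2L8 (6.05), MTRNR2L1 (6.02) and ZFP82 (0.86). A positive value means a larger rise, or a smaller fall, in 143B. Why these changes differ was not tested.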

How the results depend on the processing

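The count of genes changed over both lines was 3261 and that of shared genes 1749. With a filter at 5 FPKM these were 2098 and 1077, where fewer genes were tested, and with the length and GC correction 5959 and 3171 (the cause was not tested). Leaving out 1 library at a time gave 1399 to 4763 genes changed, 1919 to 2684 shared and 3652 to 6381 whose change differed between the lines. With the replicate block, 6124 genes changed over both lines, against 3261 without it. Same-numbered libraries deviated together in 143B (r = 0.610) and not in HOS (r = -0.129). The labels do not say what same-numbered libraries share, and what lay behind the 143B value was not tested. With the pairing crossed in HOS the block gave 6159, and with median-ratio scaling 6138, both chosen after seeing the data. A test against a 2-fold change called 12 genes (2 higher, 10 lower), and 627 were called with the same sign in each line's own fit. Of 125 named genes, 89 kept direction and side of the threshold under every alternative. MTRNR2L3, which is no member, reversed to -0.12 with a pseudocount of 0.1. Depth is unknown and limits low values.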

Other observations

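The 3 genes in each direction with the largest difference between the lines included the following. PLAU, the urokinase plasminogen activator, was at 416 and 496 FPKM in the 143B NC libraries, 31 and 34.8 in the 143B sgNAT10 libraries, 9.72 and 10.6 in the HOS NC libraries and 40.8 and 39.4 in the HOS sgNAT10 libraries. DDIT4, an inhibitor of mTORC1 induced by stress, was at 58.8 and 51.5 FPKM in the 143B NC libraries, 1.65 and 1.3 in the 143B sgNAT10 libraries, 42.5 and 45.1 in the HOS NC libraries and 77.2 and 77.4 in the HOS sgNAT10 libraries. Both were lower in 143B and higher in HOS. The humanin-like genes MTRNR2L1 and MTRNR2L8 did the reverse: MTRNR2L8 was at 657 and 967 FPKM in the 143B NC libraries, 2027 and 1768 in the 143B sgNAT10 libraries, 2558 and 2385 in the HOS NC libraries and 91.2 and 83.6 in the HOS sgNAT10 libraries. MTRNR2L10, which resembles them in sequence, was lower in both lines.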
